A study of Mus musculus with 102 samples.

Results

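Whole tissue from the brains of 5 mice aged 26 months was set against that of 7 mice aged 3 months, the widest span of age in a series of 102 RNA sequencing samples. The 12 libraries were chosen by tissue and age label alone, from 45 brain libraries of 6 ages, and 15566 genes with a value of at least 10 in at least 5 of the 45 brain libraries were tested. Both groups consist of male mice labelled WT, with BL6J in the sample titles, and no treatment is given. The tissue is labelled brain and no region is stated. Frozen tissue was used for total RNA, so each library is a mixture of neurons, glia, vessels and any blood that stayed in the tissue. In such bulk RNA, fewer cells of a type and less RNA per cell cannot be told apart.

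Microglia are the resident macrophages of the brain. They take up debris and pathogens, and when activated they raise integrins, lectins, Fc receptors and the initiating complement proteins. Interferons act on most cells of the brain through STAT factors and raise antiviral enzymes and the class I antigen presentation machinery. Neurons, by contrast, turn on immediate early genes within minutes of being active, and many of these carry a cyclic AMP response element near their start.

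Of the 15566 genes tested, 103 differed between the ages (0.662%) at a limma adjusted p under 0.05. Of these, 89 were higher at 26 months (0.572% of those tested) and 14 were lower (0.0899%). On reads recovered from the same values edgeR called 118 genes (0.758%) and DESeq2 167 (1.07%). All expression values are normalized read counts, that is reads per gene divided by 1 size factor per library, and means carry the SD over 5 brains at 26 months and 7 at 3 months. Fold changes are on the scale of log2(value + 1), which understates the change of genes with few reads. The filter on level spanned all ages, so a gene low at 3 months could be tested through its old brains alone. Itgax and Clec7a, for example, were at most 4.06 and 5.02 at 3 months and at least 14.6 and 18.5 at 26 months. The part of this in the calls of genes with few reads was not tested. The calls in the 2 directions were unequal although all genes together were balanced, with 49% of them above 0, 51% below and a median log2 fold change of -0.01. At an unadjusted p under 0.05, 924 genes were higher (5.94%) and 648 were lower (4.16%). Over all tested genes the groups did not overlap in 164 (1.05%). Of the 89 higher genes, 68 had every 26-month brain above every 3-month brain, against 0.822% of all tested genes, and of the 14 lower genes 5 had every 26-month brain below, against 0.231%.

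**Figure D1:**
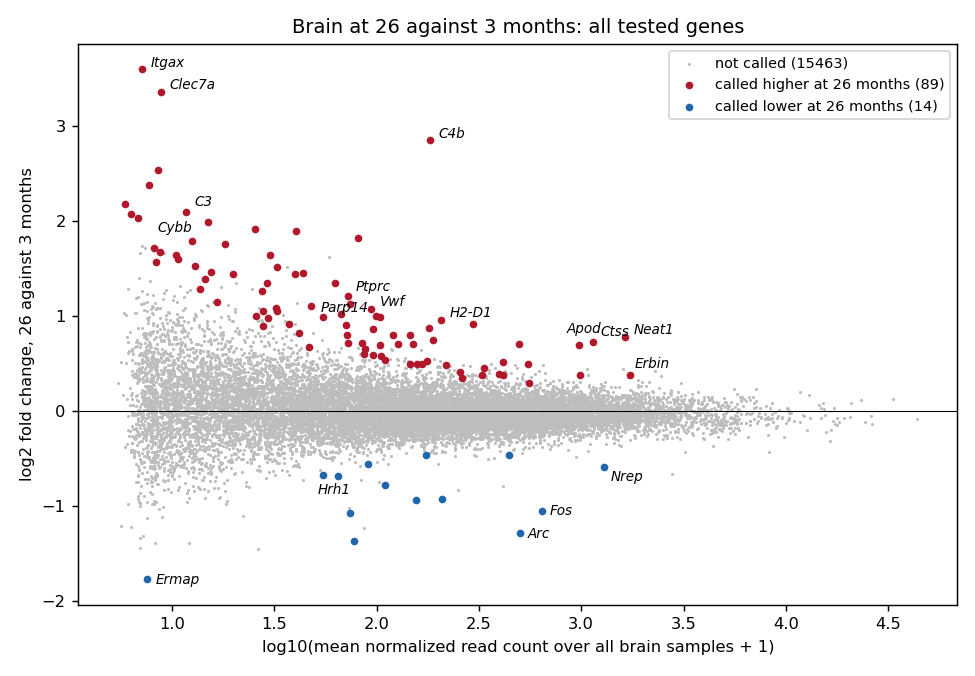
Log2 fold change of each tested gene (26 months over 3 months, y axis) against log10 of its mean normalized read count plus 1 over all brain samples (x axis). Coloured points are the 89 higher (red) and 14 lower (blue) genes at a limma adjusted p under 0.05. The higher genes spread over all levels and reach a log2 fold change of 3.60, while 11 of the 14 lower genes have means between 50 and 500.

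The size of the called changes went with the level of the gene. Among the 4800 tested genes with a mean under 50 over all brain samples, 40 were higher and 1 was lower, and the median size of their log2 fold change was 1.53. Among the 7168 genes with means of 50 to 500, 42 were higher and 11 lower, with a median size of 0.72. Among the 3598 genes above 500, 7 were higher and 2 lower, with a median size of 0.59. Of the calls, 83 higher and 8 lower genes lie beyond 12 large changes of genes with higher levels, chosen from earlier results with genes of predicted, clone or pseudogene names left out (C4b, Lyz2, Serpina3n, A2m, Gpnmb and Lag3 higher, and Arc, Fos, Ier2, Junb, Btg2 and Arl4d lower). A doubling or more was fitted for 42 higher and 5 lower genes, and 19 higher and 3 lower genes changed by less than 1.5-fold.

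Libraries held 4594090 to 13655235 reads in genes at 26 months and 4212565 to 9374535 at 3 months. The library with fewest reads at 26 months, replicate 1, was the highest of its 5 in 47 of the 89 higher genes (52.8%), compared with 21.7% of all tested genes. Without that library 54 genes were higher and 13 lower. Leaving out 26-month replicate 4 gave 58 higher genes, 26-month replicate 5 gave 8 lower genes and 3-month replicate 1 gave 9 lower genes. Without both libraries under 5000000 reads (26-month replicate 1 and 3-month replicate 1) 40 were higher and 9 lower. Haemoglobin transcripts, a sign of blood, summed to 68.8 and 135 normalized reads in 26-month replicates 1 and 2 and to 21.4 to 28.8 in the other 26-month brains, and to 21.1 to 67.7 in the 3-month brains. Without 26-month replicates 1 and 2, 29 genes were higher and 9 lower. The part of blood or of depth in the calls beyond these counts was not tested. Neuronal, astrocyte and oligodendrocyte markers were abundant in every library, with Snap25, a synaptic vesicle fusion protein, at 21799.5 to 31561 at 26 months and 21317 to 36704 at 3 months, as the brain label says. P2ry12, P2ry13 and Gpr34, widely used microglial markers, are listed at 0 in every brain library, and no level is drawn from them.

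Genes of phagocytic cells were among the higher genes. Of all 89 higher genes, 25 are in the lists of microglia, border macrophages, complement, toll-like and Fc receptors, antigen presentation, interferon-stimulated genes and chemokines and cytokines, and 53 are in none of the 39 lists. All lists were written with earlier results of these data known, so their called shares are description only. Of 25 tested genes of activated microglia, 8 were higher and none lower, with a median log2 fold change of 0.38 beside -0.01 over all genes. Gpnmb and Lyz2, among the 8, were already known to be higher when the list was written. Of 13 tested toll-like and Fc receptors, 2 were higher, all 13 had positive fold changes and the median was 0.59. Of 12 tested homeostatic microglia genes 0 passed in either direction. Of these 11 had positive fold changes, 3 were higher at an unadjusted p under 0.05 and the median was 0.13. The difference between the activated and homeostatic lists was not tested.

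Itgax encodes the integrin chain CD11c, which marks activated microglia and dendritic cells. It read 44.8, 21.9, 14.6, 26.7 and 17.7 normalized reads in the 26-month brains, against a lowest of 0, a median of 1.92 and a highest of 4.06 in the 3-month brains. The groups did not overlap, and 26-month replicate 1 stood highest (log2 fold change 3.60, SE 0.54, limma adjusted p = 3.89e-05). Its partner chain Itgb2, shared by the leukocyte integrins, read 48, 45.1, 33.1, 62.3 and 61.9 normalized reads in the 26-month brains, against a lowest of 17.3, a median of 22.6 and a highest of 27.1 in the 3-month brains. Every old brain was above every young one (log2 fold change 1.09, SE 0.23, limma adjusted p = 0.00746), and for both integrin chains the call held when each of the 12 libraries was left out in turn.

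Cybb encodes the catalytic subunit of the phagocyte NADPH oxidase, which makes superoxide. It read 48, 13.4, 32.1, 22 and 28.1 normalized reads in the 26-month brains, against a lowest of 3.25, a median of 7.38 and a highest of 12.2 in the 3-month brains. The lowest 26-month brain, replicate 2, was only just above the highest 3-month one (log2 fold change 1.79, SE 0.36, limma adjusted p = 0.0042), and the call held when each of the 12 libraries was left out in turn. Clec7a, the lectin Dectin-1 that binds fungal glucans, read 72, 28, 18.5, 35.6 and 18.5 normalized reads in the 26-month brains, against a lowest of 0, a median of 2.43 and a highest of 5.02 in the 3-month brains. Its groups were well apart (log2 fold change 3.36, SE 0.50, limma adjusted p = 3.62e-05), and the call held when each of the 12 libraries was left out in turn.

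Ptprc encodes CD45, the phosphatase carried by all white blood cells and by microglia at a lower level. It read 186, 116, 103, 114 and 139 normalized reads in the 26-month brains, against a lowest of 36, a median of 57.3 and a highest of 66 in the 3-month brains. No 26-month brain reached down to the 3-month range (log2 fold change 1.22, SE 0.15, limma adjusted p = 9.66e-07), and the call held when each of the 12 libraries was left out in turn. Tlr2, a receptor for bacterial lipoproteins, read 36.8, 14.6, 13.6, 12.6 and 9.65 normalized reads in the 26-month brains, against a lowest of 2.37, a median of 4.02 and a highest of 9.58 in the 3-month brains. Most of its spread came from 26-month replicate 1 (log2 fold change 1.57, SE 0.39, limma adjusted p = 0.0372), and the call was lost without 26-month replicates 1, 2, 3 or 4 or without 3-month replicates 1, 3, 4 or 7 (adjusted p up to 0.248). Fcgr2b, the inhibitory receptor for IgG, read 68.8, 35.4, 34.1, 50.3 and 43.4 normalized reads in the 26-month brains, against a lowest of 8.92, a median of 16.6 and a highest of 33.1 in the 3-month brains. Its groups met without overlapping (log2 fold change 1.27, SE 0.27, limma adjusted p = 0.00727), and the call was lost without 26-month replicate 1 (adjusted p = 0.0569).

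Further phagocyte genes were higher, among them lysosomal ones. Fyb, an adaptor of integrin signalling, averaged 24.8 ± 7.5 at 26 months and 10.7 ± 3.75 at 3 months (log2 fold change 1.15, SE 0.23, limma adjusted p = 0.0042), and the call held when each of the 12 libraries was left out in turn. Slc15a3, a lysosomal transporter of histidine and small peptides, averaged 20.7 ± 6.19 at 26 months and 7.64 ± 5.07 at 3 months (log2 fold change 1.53, SE 0.39, limma adjusted p = 0.0428). For Slc15a3 the call was lost without 26-month replicates 1, 2, 3 or 4 or without 3-month replicates 1, 3, 6 or 7 (adjusted p up to 0.162). Ctss, the lysosomal protease cathepsin S, is far more abundant, at 1609.9 ± 262.3 at 26 months and 1012 ± 376 at 3 months (log2 fold change 0.73, SE 0.17, limma adjusted p = 0.0161). One 3-month brain, replicate 5, lay inside the old range of Ctss, and the call was lost without 26-month replicate 4 or without 3-month replicate 1 (adjusted p up to 0.0885). Lgals3bp, a secreted galectin-binding glycoprotein, averaged 117 ± 43.6 at 26 months and 51.3 ± 13.4 at 3 months (log2 fold change 1.13, SE 0.24, limma adjusted p = 0.0088), and the call was lost without 26-month replicate 1 (adjusted p = 0.0761). Gpnmb, a lysosomal glycoprotein, and Lyz2, the phagocyte lysozyme, also increased, by log2 fold changes of 1.45 and 1.92, and held in all 12 leave-one-out fits.

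Several called genes of the same cells fall outside the rule by which genes are named here and were picked after their values were seen. Cd84 and Cd48, receptors of the SLAM family, were both higher. Cd84 averaged 53.1 ± 15 at 26 months and 26.4 ± 13.2 at 3 months, and Cd48 15.3 ± 3.54 at 26 months and 4.43 ± 2.43 at 3 months. The actin-bundling protein Lcp1 averaged 107 ± 25 at 26 months and 56.5 ± 12.1 at 3 months, and pleckstrin, encoded by Plek, averaged 209 ± 27.2 at 26 months and 119 ± 13.6 at 3 months. Mpeg1, a pore-forming protein of macrophages, averaged 277.9 ± 43.9 at 26 months and 153 ± 36.9 at 3 months, and Cd33, a sialic acid receptor, 208 ± 21.6 at 26 months and 129 ± 32.4 at 3 months. All 6 passed the test, at limma adjusted p between 5.09e-05 and 0.0285. For Cd84 the call was lost without 26-month replicates 1 or 4 (adjusted p up to 0.0909). For Cd48 the call was lost without 26-month replicates 1, 3, 4 or 5 or without 3-month replicates 1 or 3 (adjusted p up to 0.11). The other 4 calls held in all 12 such fits.

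Ptprc, Itgax, Itgb2, Cybb and Lcp1 are also expressed by blood leukocytes and by macrophages at the borders of the brain, so the markers of those cells belong beside them. Of 13 neutrophil and monocyte markers 2 were tested and 0 passed, and the list summed to 58.5 to 116 at 26 months and 32.5 to 63.2 at 3 months. S100a8 stood at 0 to 3.66 at 26 months and 0 to 2.01 at 3 months, and the granule genes Elane and Mpo at 0 in every 26-month brain. Of 20 T cell markers 6 were tested and 0 passed, and the list summed to 142 to 211 at 26 months and 101 to 189.9 at 3 months, with Cd3e at 0 to 1.6 at 26 months and 0 to 0.811 at 3 months. Of 14 B and plasma cell markers 4 were tested and 0 passed, with Ms4a1 at 0 in every brain of both groups. Of 10 markers of border macrophages 4 were tested and 0 passed, with a summed 116 to 249.9 at 26 months and 90.1 to 164 at 3 months. Within that list Mrc1, the mannose receptor, averaged 28.2 ± 9.91 at 26 months and 20.7 ± 7.85 at 3 months, which did not pass (limma adjusted p = 0.607). Lcn2, made by neutrophils and by reactive astrocytes, ran from 0.974 to 31.4 at 26 months and 0 to 2.01 at 3 months and was too low to be tested. Tested members of these lists had positive fold changes in 2 of 2 neutrophil and monocyte genes (median 0.66), 5 of 6 T cell genes (median 0.40), 4 of 4 border macrophage genes (median 0.37) and 2 of 4 B and plasma cell genes (median -0.01), beside 0.38 for activated microglia. The part of these cells in the higher phagocyte genes was not tested.

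**Figure D2:**
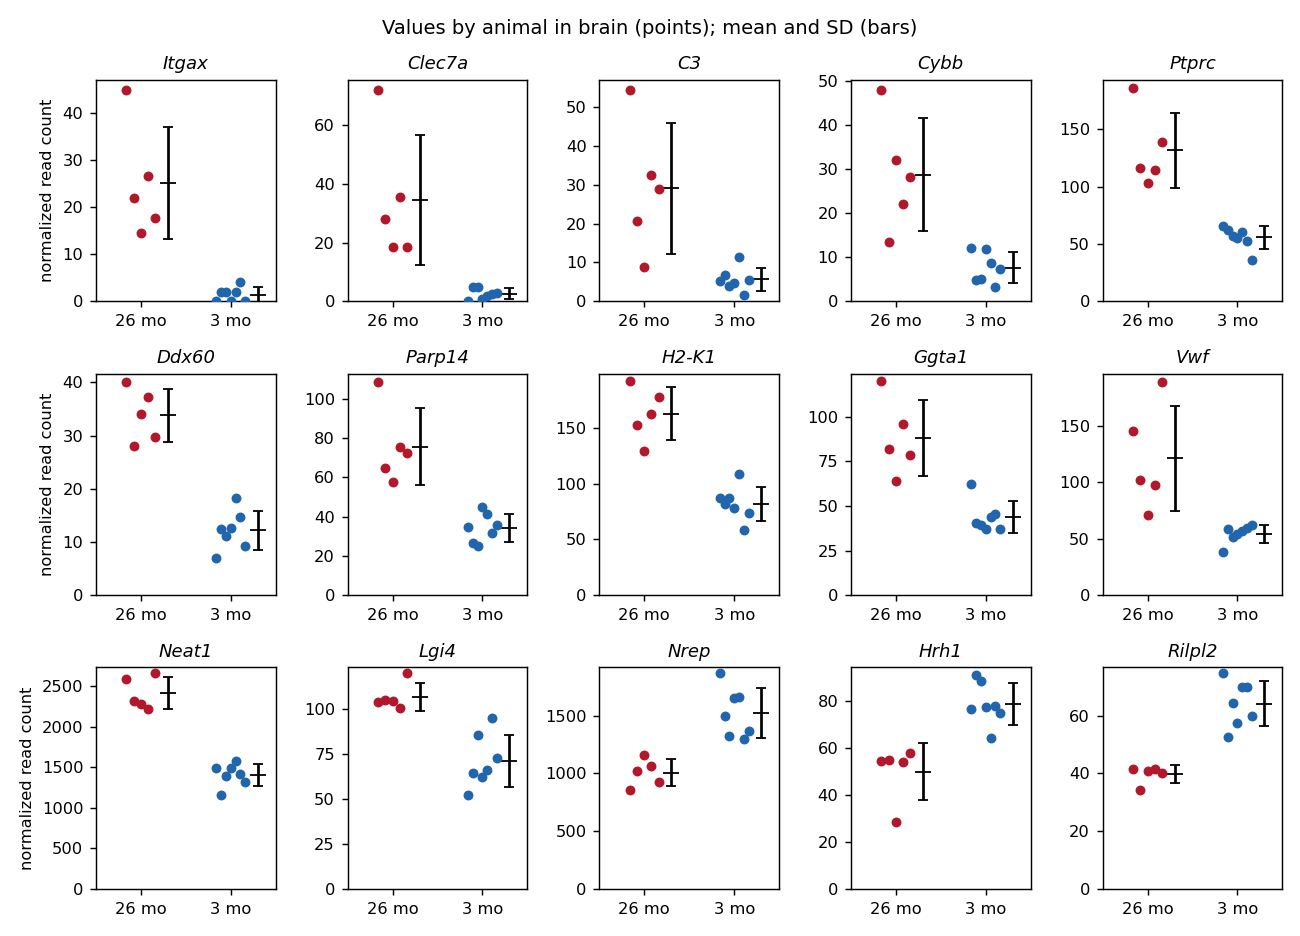
Normalized read count (y axis, linear from 0) of 15 called genes in each of the 5 brains of 26 months (left, red) and the 7 of 3 months (right, blue), 1 point per brain, with mean and SD bars. In Itgax, Cybb, Ptprc and Neat1 every 26-month brain lies above every 3-month brain, and in Nrep, Hrh1 and Rilpl2 below.

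Complement genes rose at the initiating step as well as at C3 and C4b. Of 18 tested complement genes 6 were higher, none lower, and the median log2 fold change was 0.60. C4b, among the 6, was already known to be higher when the list was written. C1qa, a chain of the complex that starts the classical pathway and is made mostly by microglia in brain, read 230.5, 127, 79.9, 152 and 125 normalized reads in the 26-month brains, against a lowest of 49.5, a median of 72.4 and a highest of 116 in the 3-month brains. Of the old brains 4 were above every young one, with replicate 3 inside their range (log2 fold change 0.87, SE 0.20, limma adjusted p = 0.0183). C1qb, a second chain of that complex, averaged 184 ± 42.1 at 26 months and 112 ± 24.8 at 3 months (log2 fold change 0.71, SE 0.16, limma adjusted p = 0.0137). For C1qa the call was lost without 26-month replicates 1 or 4 or without 3-month replicate 6 (adjusted p up to 0.162). For C1qb the call was lost without 26-month replicates 1 or 4 (adjusted p up to 0.0735). C3ar1, the receptor for the C3a fragment, averaged 46.8 ± 9.84 at 26 months and 19.4 ± 9.09 at 3 months (log2 fold change 1.34, SE 0.25, limma adjusted p = 0.00111), and the call held when each of the 12 libraries was left out in turn.

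Signalling proteins between glia, vessels and leukocytes were also among the calls. Of 21 chemokines and cytokines in the list 9 were tested and 3 were higher, where 0.572% of all tested genes were. Cxcl13, a chemokine that attracts B cells, read 17.6, 8.53, 5.84, 16.8 and 8.85 normalized reads in the 26-month brains, against a lowest of 0, a median of 2.43 and a highest of 4.02 in the 3-month brains. The groups did not overlap, yet the values are of few reads (log2 fold change 2.18, SE 0.52, limma adjusted p = 0.0268), and the call was lost without 26-month replicates 1, 4 or 5 or without 3-month replicates 1 or 4 (adjusted p up to 0.113). Cxcl12, a chemokine of vessels and neurons, is abundant and averaged 517 ± 155 at 26 months and 352 ± 38 at 3 months (log2 fold change 0.52, SE 0.12, limma adjusted p = 0.0156), and the call was lost without 26-month replicate 1 (adjusted p = 0.183). Csf1, the growth factor on which microglia depend, averaged 232 ± 35.6 at 26 months and 161 ± 21 at 3 months (log2 fold change 0.52, SE 0.13, limma adjusted p = 0.0285), and the call was lost without 26-month replicates 1, 2, 4 or 5 or without 3-month replicates 3, 4 or 5 (adjusted p up to 0.131). Its receptor Csf1r did not pass, at 228 ± 69.5 at 26 months and 208 ± 45.6 at 3 months (limma adjusted p = 0.906).

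Antiviral and antigen presentation genes were also among the calls. Of 29 tested interferon-stimulated genes only 2 passed over all genes, Oas1a and Parp14, but all 29 had positive fold changes, 24 were higher at an unadjusted p under 0.05 (5.94% of all genes were), and the median was 0.63. Of 11 tested genes of class I presentation 5 were higher, all 11 had positive fold changes and the median was 0.96. Among the class II genes 0 of 6 passed, with Cd74, the invariant chain, at 23 ± 8.33 at 26 months and 11.2 ± 3.57 at 3 months (limma adjusted p = 0.24).

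Parp14, an interferon-induced ADP-ribosyltransferase, read 109, 64.6, 57.5, 75.4 and 72.4 normalized reads in the 26-month brains, against a lowest of 25.1, a median of 34.7 and a highest of 45 in the 3-month brains. Each old brain was above each young one (log2 fold change 1.11, SE 0.19, limma adjusted p = 4.92e-04), and the call held when each of the 12 libraries was left out in turn. Ddx60, a helicase that assists viral RNA sensing, read 40.01, 28, 34.1, 37.2 and 29.8 normalized reads in the 26-month brains, against a lowest of 6.95, a median of 12.5 and a highest of 18.2 in the 3-month brains. The old brains lay close together and clear of the young ones (log2 fold change 1.44, SE 0.26, limma adjusted p = 0.00112), and the call held when each of the 12 libraries was left out in turn. Oas1a, which makes the oligoadenylates that activate RNase L, read 22.4, 13.4, 5.84, 14.7 and 10.5 normalized reads in the 26-month brains, against a lowest of 1.0, a median of 1.92 and a highest of 4.79 in the 3-month brains. It is a gene of few reads, and without 26-month replicates 1, 2 or 4 or without 3-month replicate 3 its call was lost (log2 fold change 2.08, SE 0.49, limma adjusted p = 0.0223, and up to 0.113 in those fits).

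The class I heavy chains H2-K1 and H2-D1 present peptides on nearly every cell. H2-K1 averaged 163 ± 23.9 at 26 months and 82 ± 15.2 at 3 months (log2 fold change 0.99, SE 0.16, limma adjusted p = 1.33e-04) and H2-D1 309 ± 66.8 at 26 months and 161 ± 49.8 at 3 months (log2 fold change 0.96, SE 0.16, limma adjusted p = 2.64e-04). Both calls held when each of the 12 libraries was left out in turn. Nlrc5, the transactivator of class I genes, read 30.4, 9.75, 18.5, 19.9 and 30.6 normalized reads in the 26-month brains, against a lowest of 2.87, a median of 8.68 and a highest of 13.8 in the 3-month brains. Only 26-month replicate 2 fell within the young range (log2 fold change 1.28, SE 0.32, limma adjusted p = 0.0344), and the call was lost without 26-month replicates 1, 3, 4 or 5 or without 3-month replicates 2, 3 or 7 (adjusted p up to 0.162). H2-Q4, a nonclassical class I gene, averaged 25.2 ± 12 at 26 months and 8.59 ± 4.07 at 3 months (log2 fold change 1.47, SE 0.32, limma adjusted p = 0.00883), and the call was lost without 26-month replicates 1 or 5 (adjusted p up to 0.0653). H2-Q6, of the same cluster, averaged 18.5 ± 9.41 at 26 months and 5.54 ± 4.13 at 3 months (log2 fold change 1.64, SE 0.38, limma adjusted p = 0.0194), and the call was lost without 26-month replicates 1 or 5 or without 3-month replicate 4 (adjusted p up to 0.124). Nlrp1b, an inflammasome sensor, averaged 24.4 ± 6.7 at 26 months and 9.87 ± 5.19 at 3 months (log2 fold change 1.39, SE 0.35, limma adjusted p = 0.0389), and the call was lost without 26-month replicates 1, 2, 3, 4 or 5 or without 3-month replicates 1, 2, 3 or 7 (adjusted p up to 0.169). Ifi204, Oas1a, Nlrp1b, Trim30d and the H2 genes belong to families of near-identical copies, among which reads may be divided, so their separate values are uncertain.

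Other antiviral genes among the calls were picked after their values were seen. Zc3hav1, the zinc-finger antiviral protein that binds viral RNA, averaged 95.4 ± 28.1 at 26 months and 53.8 ± 11.5 at 3 months. Trim25, a ubiquitin ligase of RNA sensing, averaged 114 ± 18 at 26 months and 70.6 ± 19.7 at 3 months, and Parp12 averaged 175 ± 18.6 at 26 months and 124 ± 13.6 at 3 months. The DNA sensor Aim2 averaged 98.1 ± 11.9 at 26 months and 61.9 ± 21.1 at 3 months, and Ifi204, of the same family, 15.9 ± 5.28 at 26 months and 2.99 ± 2.75 at 3 months. Icosl, a ligand that stimulates T cells, averaged 44.4 ± 7.04 at 26 months and 22.6 ± 6.4 at 3 months. With Trim30d at 35.5 ± 4.69 at 26 months and 18.4 ± 7.2 at 3 months, all 7 passed, with limma adjusted p from 0.00929 to 0.0342. Of these Parp12 alone held in all 12 leave-one-out fits. It was not called with only the 26-month and 3-month libraries (limma adjusted p = 0.0825) or without 26-month replicate 1 and 3-month replicate 1 together (limma adjusted p = 0.11). For Zc3hav1 the call was lost without 26-month replicate 1 or without 3-month replicate 2 (adjusted p up to 0.155). For Trim25 the call was lost without 26-month replicate 1 or without 3-month replicates 1 or 3 (adjusted p up to 0.108). For Icosl the call was lost without 26-month replicates 1 or 5 or without 3-month replicates 2 or 4 (adjusted p up to 0.0909). For Trim30d the call was lost without 26-month replicates 1, 4 or 5 or without 3-month replicates 2 or 3 (adjusted p up to 0.0735). For Ifi204 the call was lost without 26-month replicates 1, 4 or 5 or without 3-month replicates 1 or 3 (adjusted p up to 0.0751). For Aim2 the call was lost without 26-month replicates 1, 3, 4 or 5 or without 3-month replicates 1, 2 or 3 (adjusted p up to 0.127). Members of the interferon list just short of the test included Oasl2 (log2 fold change 0.90, limma adjusted p = 0.0565) and Ddx58, the RNA sensor RIG-I (log2 fold change 0.81, limma adjusted p = 0.0581).

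Promoters were read for the interferon-stimulated response element (GAAA, any 2 bases, GAAA, on either strand) in the 250 bases before the start, from RefSeq sequence of GRCm38.p6. A promoter was on hand for 74 of the 103 called genes and 11511 of all tested genes. The element was in 3.10% of all these promoters, in 12 of 23 genes of the interferon list, in 5 of 65 higher genes and in 0 of 9 lower genes. Those 5 promoters are shown because they are the higher genes that hold it, 5′ to 3′ on the strand of the gene. Matches that do not overlap one another are in capitals. In Trim30d and Cybb the match lies on the other strand and reads here as TTTC, any 2 bases, TTTC.
Oas1a, chr5:120907526-120907605, minus strand: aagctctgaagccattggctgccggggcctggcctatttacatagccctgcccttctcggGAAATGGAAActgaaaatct
Ddx60, chr8:61927999-61928078, plus strand: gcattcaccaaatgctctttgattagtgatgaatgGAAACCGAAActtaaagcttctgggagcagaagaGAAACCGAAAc
Trim30d, chr7:104507850-104507929, minus strand: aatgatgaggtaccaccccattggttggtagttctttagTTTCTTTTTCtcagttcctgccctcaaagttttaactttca
Cybb, chrX:9469448-9469527, minus strand: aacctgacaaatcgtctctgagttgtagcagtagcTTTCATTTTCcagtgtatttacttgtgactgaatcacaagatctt
Ctss, chr3:95526706-95526785, plus strand: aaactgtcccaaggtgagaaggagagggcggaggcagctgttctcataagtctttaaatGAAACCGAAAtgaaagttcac
The match in capitals ends 10 bases before the start of Oas1a and 11 before that of Ctss. In Oas1a a further match overlaps the capitals, runs on into the lower case nearer the start and was not counted. Ddx60 holds 2 matches in its stretch, and Cybb holds 3 in the 250 bases, of which 1 is shown. Ctss and Cybb are phagocyte genes by role, while Oas1a, Ddx60 and Trim30d are antiviral ones. Of 4 further motifs searched on both strands, GAGGAAGT (PU.1) was in 2 of 65 higher genes and 2.61% of all, TTCCNNGAA (STAT) in 2 and 4.47%, GGGA, any base and TTTCC (NF-kB) in 1 and 0.426%, and CCATA joined to TTAGG (SRE) in 0 and 0.0261%. None of these matches is a shown binding site.

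Calls among astrocyte genes were of reactive genes. Of 17 tested reactive astrocyte genes 7 were higher and the median log2 fold change was 0.55, while 0 of 16 identity genes passed in either direction and their median was 0.01. Serpina3n and A2m, among the 7, were already known to be higher when the list was written. None of the 7 is in another list, but the lists do not show which cells express them. In spleens of 26 months, normalized separately, their means were 2117 (Vim), 889 (Stat3), 702 (Cp), 684 (Ggta1), 180 (Osmr), 117 (Serpina3n) and 19.5 (A2m). The part of other cells in these 7 calls was not tested. Osmr, the receptor subunit for oncostatin M, read 43.2, 35.4, 31.2, 31.4 and 52.3 normalized reads in the 26-month brains, against a lowest of 13.4, a median of 20.504 and a highest of 26 in the 3-month brains. The groups did not overlap (log2 fold change 0.90, SE 0.22, limma adjusted p = 0.0342), but the call was lost without 26-month replicates 1, 2 or 5 or without 3-month replicates 3, 5 or 7 (adjusted p up to 0.149). Ggta1, a galactosyltransferase, read 120.0, 81.7, 64.3, 95.8 and 78.8 normalized reads in the 26-month brains, against a lowest of 36.9, a median of 40.2 and a highest of 62.5 in the 3-month brains. Only 3-month replicate 1 came near the old brains (log2 fold change 0.99, SE 0.18, limma adjusted p = 0.0012), and the call held when each of the 12 libraries was left out in turn. Cp, the copper-carrying ferroxidase ceruloplasmin, averaged 131 ± 19.8 at 26 months and 80.1 ± 11.3 at 3 months (log2 fold change 0.70, SE 0.17, limma adjusted p = 0.0325), and the call was lost without 26-month replicates 1, 2, 4 or 5 or without 3-month replicates 1, 2, 3 or 5 (adjusted p up to 0.129). Vim, the intermediate filament vimentin, averaged 270.3 ± 52.4 at 26 months and 161 ± 31.7 at 3 months (log2 fold change 0.75, SE 0.14, limma adjusted p = 0.00171), and the call held when each of the 12 libraries was left out in turn. Slc1a2, the main glutamate transporter of astrocytes, stood at 21435 ± 1392 at 26 months and 20356 ± 2384 at 3 months and did not pass (limma adjusted p = 0.831).

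Myelinating oligodendrocyte genes had small positive fold changes. All 20 tested members had positive fold changes and 9 were higher at an unadjusted p under 0.05, with a median of 0.24, but only 2 passed over all genes. Hapln2, a link protein of the matrix at nodes of Ranvier, read 110.4, 141, 112, 109 and 91.7 normalized reads in the 26-month brains, against a lowest of 59, a median of 65.5 and a highest of 99.7 in the 3-month brains. Of the old brains 4 were above every young one (log2 fold change 0.65, SE 0.15, limma adjusted p = 0.0183), and the call was lost without 26-month replicate 2 (adjusted p = 0.0961). Apod, a lipid-carrying lipocalin, averaged 1370.2 ± 373 at 26 months and 835 ± 151 at 3 months (log2 fold change 0.70, SE 0.14, limma adjusted p = 0.00459), and the call was lost without 26-month replicate 1 (adjusted p = 0.0656). Lgi4, a secreted protein that guides myelination in peripheral nerve, was picked after its values were seen and averaged 107 ± 7.54 at 26 months and 71.1 ± 14.6 at 3 months (log2 fold change 0.60, SE 0.14, limma adjusted p = 0.0183). For Lgi4 the call was lost without 26-month replicate 5 or without 3-month replicate 1 (adjusted p up to 0.0719). Precursor and newly formed oligodendrocyte genes gave 0 calls among 16, with a median of 0.07.

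Of 20 endothelial and pericyte genes 1 was higher, Vwf, the von Willebrand factor stored by endothelial cells. It read 146, 102, 71.1, 97.9 and 189 normalized reads in the 26-month brains, against a lowest of 38.2, a median of 56.5 and a highest of 61.8 in the 3-month brains. The groups were apart, with 26-month replicates 5 and 1 highest (log2 fold change 1.08, SE 0.23, limma adjusted p = 0.00761), and the call was lost without 26-month replicate 5 (adjusted p = 0.0653). Cd109, a surface protein of the alpha-2-macroglobulin family, read 72, 46.3, 39, 40.3 and 24.9 normalized reads in the 26-month brains, against a lowest of 9.04, a median of 22 and a highest of 24.4 in the 3-month brains. Its lowest old brain was just above its highest young one (log2 fold change 1.06, SE 0.24, limma adjusted p = 0.0181), and the call was lost without 26-month replicate 1 or without 3-month replicate 3 (adjusted p up to 0.137). Flnc, filamin C of actin networks, picked after its values were seen, averaged 17.8 ± 5.79 at 26 months and 5.06 ± 1.39 at 3 months (log2 fold change 1.60, SE 0.34, limma adjusted p = 0.0088), and the call held when each of the 12 libraries was left out in turn. Extracellular matrix genes gave 0 calls among 24, and Col3a1, a fibrillar collagen, averaged 15.6 ± 2.67 at 26 months and 25.8 ± 9.4 at 3 months (limma adjusted p = 0.305).

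Some increases were of abundant transcripts with small folds, which a ranking by fold size passes over. These were picked after their values were seen. Neat1, the noncoding RNA that scaffolds nuclear paraspeckles, read 2581, 2314, 2277, 2210.2 and 2655 normalized reads in the 26-month brains, against a lowest of 1162, a median of 1421 and a highest of 1576 in the 3-month brains. The lowest old brain was well above the highest young one (log2 fold change 0.78, SE 0.11, limma adjusted p = 5.79e-06), and the call held when each of the 12 libraries was left out in turn. Erbin, a scaffold protein of ErbB2 signalling and cell junctions, read 2130.1, 2063, 2409, 2090.4 and 1887 normalized reads in the 26-month brains, against a lowest of 1388, a median of 1711 and a highest of 1796 in the 3-month brains. The groups lay close but apart (log2 fold change 0.38, SE 0.08, limma adjusted p = 0.0042), and the call held when each of the 12 libraries was left out in turn. Abca8a, a membrane transporter of the ABC family, read 387, 399, 429, 425 and 367 normalized reads in the 26-month brains, against a lowest of 158, a median of 213 and a highest of 266 in the 3-month brains. Its groups were far apart for a gene that did not quite double (log2 fold change 0.91, SE 0.12, limma adjusted p = 1.24e-06), and the call held when each of the 12 libraries was left out in turn.

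The remaining increases given here are of mixed roles. All but AU020206, Clca4a and Tpcn2 were picked after their values were seen. Stat3, the transcription factor downstream of interleukin-6 type receptors, averaged 295 ± 11.7 at 26 months and 232 ± 15.2 at 3 months (log2 fold change 0.35, SE 0.09, limma adjusted p = 0.041), and the call was lost without 26-month replicates 1, 2, 3, 4 or 5 or without 3-month replicates 1, 2, 3, 4 or 5 (adjusted p up to 0.128). Ankrd28, a regulatory subunit of a protein phosphatase, averaged 1202 ± 100.03 at 26 months and 923 ± 84.8 at 3 months, and Arhgef10 389.8 ± 22.6 at 26 months and 301 ± 34.9 at 3 months. Pde8a, a cyclic AMP phosphodiesterase, averaged 299 ± 39.6 at 26 months and 224 ± 28.4 at 3 months, and Pros1, protein S of the clotting system and a ligand of TAM receptors, 404 ± 27.1 at 26 months and 298 ± 51 at 3 months. Acer2, an alkaline ceramidase, averaged 150.3 ± 34.6 at 26 months and 85.6 ± 14.7 at 3 months, and Aldh1l2, a mitochondrial folate enzyme, 55.6 ± 10.4 at 26 months and 30.2 ± 9.17 at 3 months. The call of Ankrd28 held in all 12 leave-one-out fits, while Acer2 and Aldh1l2 lost it in 2, Pros1 in 3, Arhgef10 in 4 and Pde8a in 6 (adjusted p up to 0.139). Each of these 5 lost it without 26-month replicate 1 or without 26-month replicate 3. Itgb5, Anxa3, Trim36, B3galt5, Fam228b, Tpcn2, Pls1, Tent5c, Ccdc82, AA414992 and Clca4a passed as well, with log2 fold changes from 0.30 (Ccdc82) to 2.04 (AA414992). Among these 11, Tent5c held in all 12 leave-one-out fits and Clca4a was lost only without 26-month replicate 4 (adjusted p = 0.0603). Itgb5 lost the call in 4 fits, B3galt5 in 6, Anxa3, Trim36, Fam228b, Tpcn2 and Pls1 in 7, and Ccdc82 and AA414992 in 8 (adjusted p up to 0.194), 26-month replicate 4 being among the libraries in every case. AA414992, of few reads, ran from 8.53 to 15.2 at 26 months and 0 to 16.3 at 3 months, so no 26-month brain was above the whole 3-month range. AU020206, an intergenic noncoding RNA, averaged 115 ± 12.7 at 26 months and 45 ± 9.02 at 3 months (log2 fold change 1.35, SE 0.17, limma adjusted p = 1.59e-06), and the call held when each of the 12 libraries was left out in turn. Nlrp5-ps, a transcribed pseudogene picked after its values were seen, averaged 77.6 ± 21.6 at 26 months and 21.3 ± 9.23 at 3 months (log2 fold change 1.90, SE 0.28, limma adjusted p = 3.62e-05), and the call held when each of the 12 libraries was left out in turn. Reads may be divided between a pseudogene and its related genes, so its value is uncertain.

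Of 19 tested immediate early genes 5 were among the 14 lower genes, Arc, Fos, Ier2, Junb and Btg2. All 5 belong to the 12 large changes known from earlier results, and the list was written with those results known. Of the 19, 18 had negative fold changes, 14 were lower at an unadjusted p under 0.05 (4.16% of all genes were) and the median was -0.73. Egr1, Egr4 and Dusp1, all induced by neuronal activity, missed the test with limma adjusted p of 0.0654, 0.0598 and 0.0698. The delayed genes that follow them gave 0 calls among 29, with 25 negative and a median of -0.23. Btg2, an antiproliferative gene of the early set, read 189, 151, 115, 149 and 147 normalized reads in the 26-month brains, against a lowest of 208, a median of 271.3 and a highest of 460.2 in the 3-month brains. Every old brain was below every young one (log2 fold change -0.93, SE 0.20, limma adjusted p = 0.00746), and the call held when each of the 12 libraries was left out in turn. For Fos the call was lost without 26-month replicate 5 (adjusted p = 0.123). For Arc the call was lost without 26-month replicate 3 (adjusted p = 0.0667). For Junb the call was lost without 26-month replicates 3 or 5 or without 3-month replicate 1 (adjusted p up to 0.104). For Ier2 the call was lost without 26-month replicates 2, 3, 4 or 5 or without 3-month replicates 1 or 6 (adjusted p up to 0.124). In these 5 genes the largest fall between neighbouring ages was between 3 and 5 months. Fos averaged 956 at 3, 546 at 5, 594 at 8, 679.8 at 14, 538 at 20 and 478 at 26 months. Btg2 averaged 296 at 3, 196 at 5, 175 at 8, 211 at 14, 200.5 at 20 and 150.2 at 26 months.

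The largest falls also included a noncoding gene, next after Ermap in size. 1700016P03Rik, at chr11:75172560-75177633 on the plus strand of chromosome 11 (GRCm38, GENCODE M21), is the host transcript of miR-132 and miR-212, activity-regulated miRNAs of neurons, and it is described here after its values were seen. It read 102, 47.5, 18.5, 62.8 and 34.6 normalized reads in the 26-month brains, against a lowest of 71.9, a median of 109 and a highest of 219 in the 3-month brains. Of the old brains 4 were below every young one, and replicate 1 lay inside the young range (log2 fold change -1.38, SE 0.27, limma adjusted p = 0.00269), yet the call held when each of the 12 libraries was left out in turn. The level of the mature miRNAs was not analysed here. Both mature sequences (RefSeq, GRCm38.p6) lie within the host and are shown because they share 1 seed, bases 2 to 8, in capitals.
mmu-miR-212-3p, chr11:75173443-75173464: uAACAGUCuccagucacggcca
mmu-miR-132-3p, chr11:75173723-75173744: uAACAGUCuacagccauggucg
The promoters of the lower genes were also read for the cyclic AMP response element, TGACGTCA, which was in 2 of 9 lower genes, 0 of 65 higher genes, 2 of 15 immediate early genes and 2.93% of all promoters. Both holders are shown with the match in capitals, Btg2 and Arl4d, which encodes an ARF-like GTPase.
Btg2, chr1:134079278-134079357, minus strand: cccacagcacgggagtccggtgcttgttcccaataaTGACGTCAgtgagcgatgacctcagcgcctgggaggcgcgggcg
Arl4d, chr11:101665461-101665540, plus strand: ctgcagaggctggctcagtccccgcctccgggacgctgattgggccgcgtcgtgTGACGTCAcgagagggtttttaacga
In Arl4d the match ends 18 bases before the start and in Btg2 it ends 158 bases before it.

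The other lower genes are of several roles. Nrep, a protein linked to neuronal regeneration and high in immature neurons, read 859, 1025, 1158, 1064 and 928 normalized reads in the 26-month brains, against a lowest of 1294, a median of 1498 and a highest of 1869 in the 3-month brains. Every old brain was below every young one (log2 fold change -0.59, SE 0.12, limma adjusted p = 0.0042), and the call held when each of the 12 libraries was left out in turn. It was the only one of 17 tested genes of neurogenesis and immature neurons to pass, though 14 had negative fold changes and the median was -0.25. Dcx, doublecortin of migrating neurons, did not pass, at 723 ± 136 at 26 months and 712 ± 81.6 at 3 months (limma adjusted p = 0.991), nor did Stmn1, at 957 ± 195 at 26 months and 1219.7 ± 276 at 3 months (limma adjusted p = 0.377).

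Hrh1, the histamine H1 receptor, read 54.4, 54.9, 28.2, 53.9 and 57.9 normalized reads in the 26-month brains, against a lowest of 64.2, a median of 77.3 and a highest of 91 in the 3-month brains. Replicate 3 stood far below the other old brains, which were themselves below all young ones (log2 fold change -0.68, SE 0.17, limma adjusted p = 0.033), and the call was lost without 26-month replicates 1, 3 or 4 or without 3-month replicates 1, 2 or 3 (adjusted p up to 0.258). Rilpl2, a Rab-binding protein of cilia, read 41.6, 34.1, 40.9, 41.4 and 40.2 normalized reads in the 26-month brains, against a lowest of 52.7, a median of 64.3 and a highest of 74.7 in the 3-month brains. The groups were apart (log2 fold change -0.67, SE 0.16, limma adjusted p = 0.0285), and the call was lost without 26-month replicates 1, 2, 3, 4 or 5 or without 3-month replicates 1, 3, 5 or 6 (adjusted p up to 0.0996). Car8, a carbonic anhydrase-related protein abundant in Purkinje cells, averaged 70.7 ± 11 at 26 months and 105 ± 18.2 at 3 months (log2 fold change -0.56, SE 0.14, limma adjusted p = 0.0285), and the call was lost without 26-month replicates 2, 3 or 5 or without 3-month replicates 1 or 2 (adjusted p up to 0.137). It was the only call among 6 tested cerebellar genes, of which 4 had positive fold changes.

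Golga7b, which partners a palmitoyltransferase, averaged 378 ± 37.2 at 26 months and 523 ± 80.8 at 3 months (log2 fold change -0.46, SE 0.11, limma adjusted p = 0.0183), and the call was lost without 26-month replicates 1 or 5 or without 3-month replicates 1 or 2 (adjusted p up to 0.0875). Coq7, a hydroxylase of ubiquinone synthesis, averaged 144 ± 24.9 at 26 months and 199 ± 30.7 at 3 months (log2 fold change -0.47, SE 0.12, limma adjusted p = 0.0444). For Coq7 the call was lost without 26-month replicates 1, 3, 4 or 5 or without 3-month replicates 1, 2, 3, 4 or 5 (adjusted p up to 0.23). Ermap, an erythroid membrane protein picked after its values were seen, has few reads in brain. It averaged 2.39 ± 1.96 at 26 months and 8.98 ± 1.94 at 3 months (log2 fold change -1.78, SE 0.44, limma adjusted p = 0.033). For Ermap the call was lost without 26-month replicates 1, 4 or 5 or without 3-month replicates 1, 4, 5, 6 or 7 (adjusted p up to 0.239). Among the lower genes Coq7 and Rilpl2 each lost the call in 9 of the 12 fits and Ermap in 8. Arc, Fos, Ier2, Junb and Arl4d complete the 14, and for Arl4d the call was lost without 26-month replicates 4 or 5 or without 3-month replicate 1 (adjusted p up to 0.0718).

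Several lists without a single call leaned one way. All 24 tested respiratory chain genes had negative fold changes, with a median of -0.19 and 5 lower at an unadjusted p under 0.05. Of 24 chaperones of the cytosol and endoplasmic reticulum 23 were negative, with a median of -0.22 and 9 lower at that level. All 10 genes of the striatum were negative (median -0.21), among them Penk, the enkephalin precursor, at 867 ± 155 at 26 months and 1158 ± 157 at 3 months (limma adjusted p = 0.293). Pan-neuronal genes were negative in 18 of 19 (median -0.16), with Nrgn, a postsynaptic calmodulin-binding protein, at 7191 ± 770.0 at 26 months and 9863 ± 2194 at 3 months (limma adjusted p = 0.319). Glutamatergic synapse genes (median -0.03, 21 tested) and GABAergic genes (median -0.02, 20 tested) were nearer to all genes, also with 0 calls. Choroid plexus genes were positive in 12 of 12 with 0 calls and a median of 0.41, and Ttr, the transthyretin of that tissue, stood at 1565 to 3135 at 26 months and 1103 to 2403 at 3 months.

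**Figure D3:**
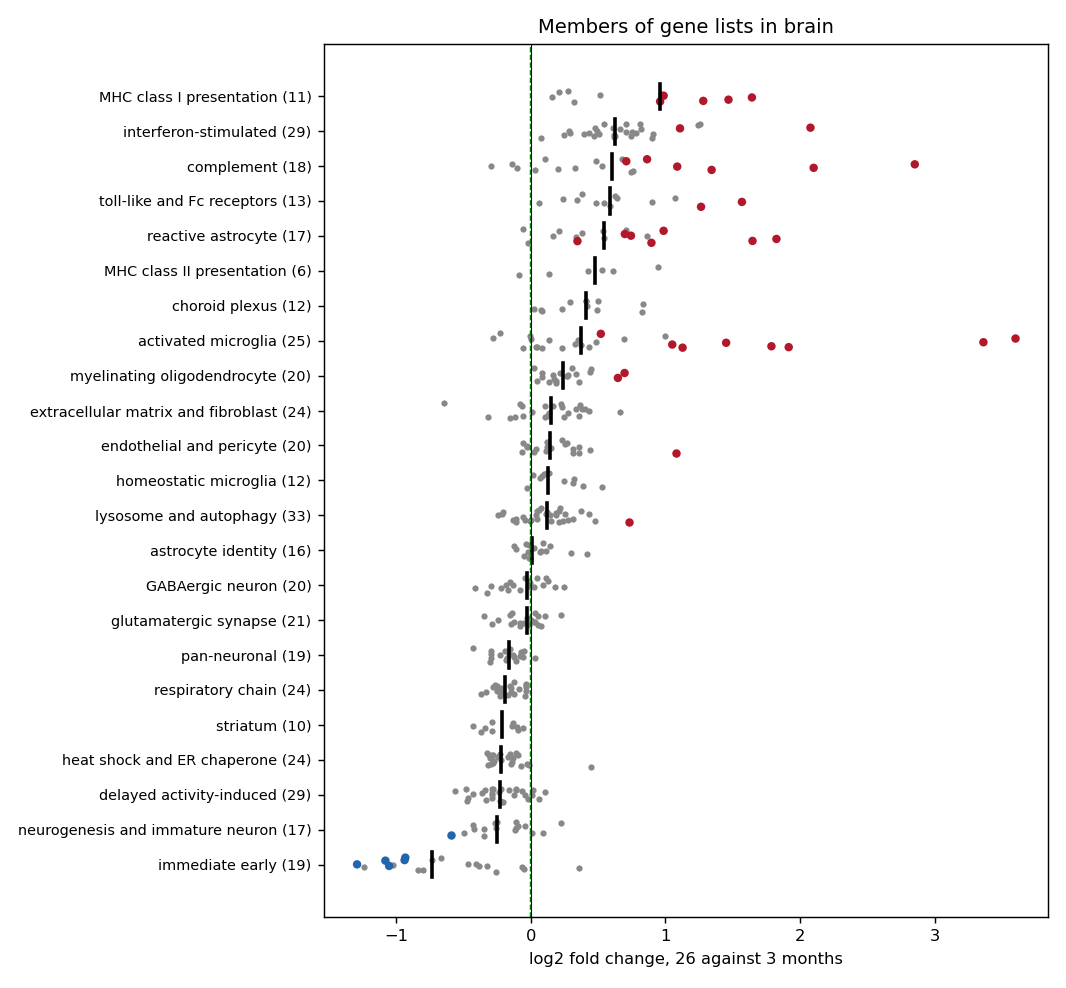
Log2 fold change (26 months over 3 months, x axis) of the tested members of 23 gene lists (rows, number tested in brackets), 1 point per gene, with a black bar at the list median, a green line at the median of all genes, and called genes in red (higher) or blue (lower). All 11 class I presentation and all 29 interferon-stimulated genes lie right of 0, and 18 of 19 immediate early genes left of it.

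The remaining lists gave 1 call between them. Lysosome and autophagy genes gave 1 call among 33, Ctss, and a median of 0.12. Medians were 0.06 for 18 genes of cholesterol synthesis, 0.02 for 21 potassium and sodium channel genes, 0.02 for 12 p53 and senescence genes, -0.04 for 16 clock genes, -0.02 for 13 glucocorticoid-responsive genes and -0.04 for 10 hippocampal genes, all with 0 calls. Hypothalamic hormones had a median of 0.23 over 11 genes, with 0 calls and a summed level of 257 to 773 at 26 months and 210.0 to 467 at 3 months. Of 3 tested erythroid genes 0 passed and the median was 0.40, with Hbb-bs, a beta globin, at 9.74 to 47.5 at 26 months and 5.68 to 33 at 3 months.

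At the ages between, the levels of the called genes were read as a description, since the same 3-month and 26-month brains chose the genes. The 20-month mean lay between the 3-month and 26-month means in 85 of the 89 higher and in all 14 lower genes. The 26-month mean was the most extreme of the 6 ages in 85 higher and 14 lower genes. Itgax averaged 1.41 at 3, 2.1 at 5, 2.17 at 8, 4.63 at 14, 7.93 at 20 and 25.2 at 26 months. Ptprc averaged 55.7 at 3, 54.9 at 5, 62.5 at 8, 64.1 at 14, 80.1 at 20 and 132 at 26 months. In both, the largest step was between 20 and 26 months. Neat1 averaged 1407 at 3, 1301 at 5, 1527 at 8, 1515 at 14, 1972 at 20 and 2407 at 26 months, and Abca8a 214 at 3, 247 at 5, 290.2 at 8, 303 at 14, 346 at 20 and 401 at 26 months. Among the lower genes, Nrep averaged 1524 at 3, 1501 at 5, 1334 at 8, 1266 at 14, 1026 at 20 and 1007 at 26 months, and 1700016P03Rik 128 at 3, 67.5 at 5, 66.2 at 8, 72.3 at 14, 66.1 at 20 and 53.2 at 26 months. The largest fall between neighbouring ages was between 3 and 5 months in 10 of the 14 lower genes, the 5 immediate early genes among them, and the largest rise was there in 1 of the 89 higher genes. For the noncoding host of miR-132 the mean then stayed between 66.1 and 72.3 to 20 months.

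**Figure D4:**
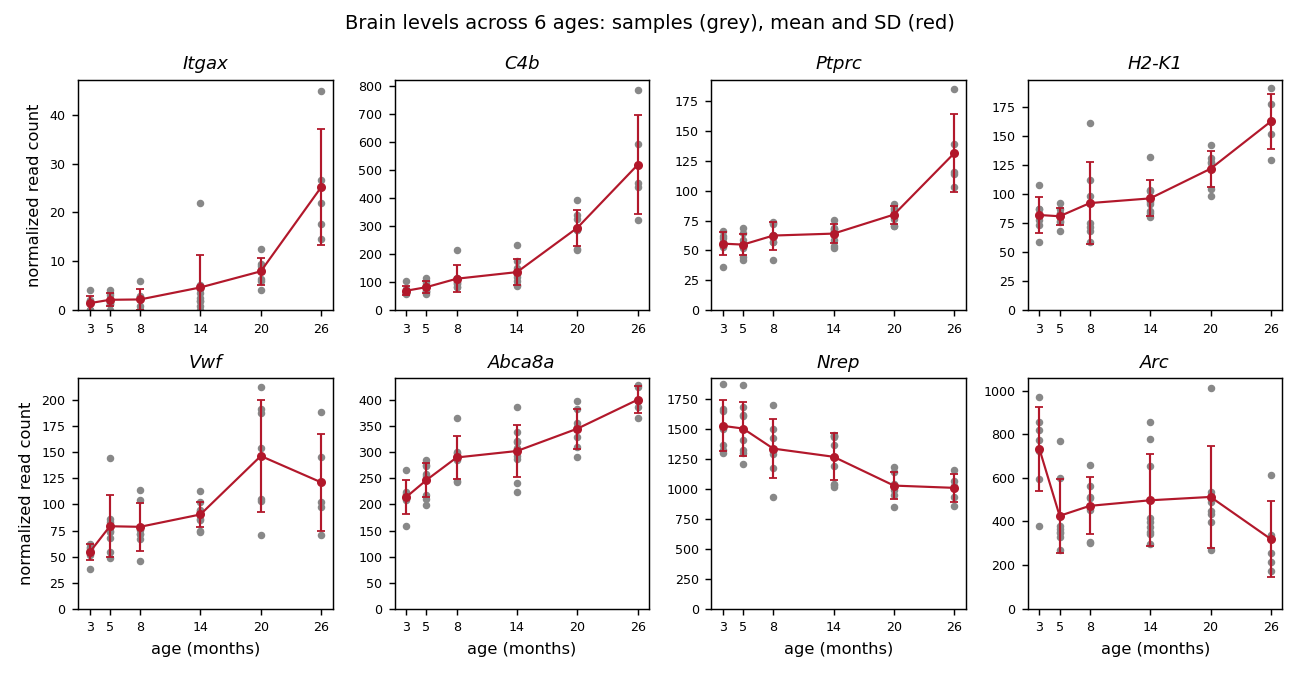
Normalized read count (y axis) of 8 called genes by age (x axis, months), with each brain sample in grey and the mean and SD in red. Itgax, C4b, Ptprc, H2-K1 and Abca8a have their highest mean at 26 months and Vwf at 20 months, while Nrep and Arc have their lowest mean at 26 months.

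Spleens of the same ages, measured in a separate table normalized on its own, were set beside the brain values with no test between tables. Their sample titles carry the same c-number codes as the brains. The labels do not explain these codes, so the spleens may come from the same mice, and no pairing was used. In spleen 60 of 16243 genes passed for 26 against 3 months (0.369%). Of the 89 genes higher in brain 80 were tested there, 55 had the same sign, 2 passed and the median log2 fold change was 0.19, where the same genes had 0.97 in brain. Of the 14 lower genes 12 were tested, 8 had the same sign, 0 passed and the median was -0.08, against -0.86 in brain. Over the 13682 genes tested in both tables the spleen median was 0.0033. The 2 that passed were Fcgr2b, at 1161 ± 281 at 26 months and 511 ± 132 at 3 months in spleen (limma adjusted p = 0.00834), and Pls1, a plastin, at 231 ± 233 at 26 months and 69.1 ± 38.9 at 3 months (limma adjusted p = 0.0339). Itgax, by contrast, stood in spleen at 575 ± 193 at 26 months and 475 ± 86 at 3 months (limma adjusted p = 0.723). Ermap, the largest fall in brain, had 1374 ± 1309 at 26 months and 70.2 ± 41.5 at 3 months in spleen (log2 fold change 2.63, limma adjusted p = 0.153).

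**Figure D5:**
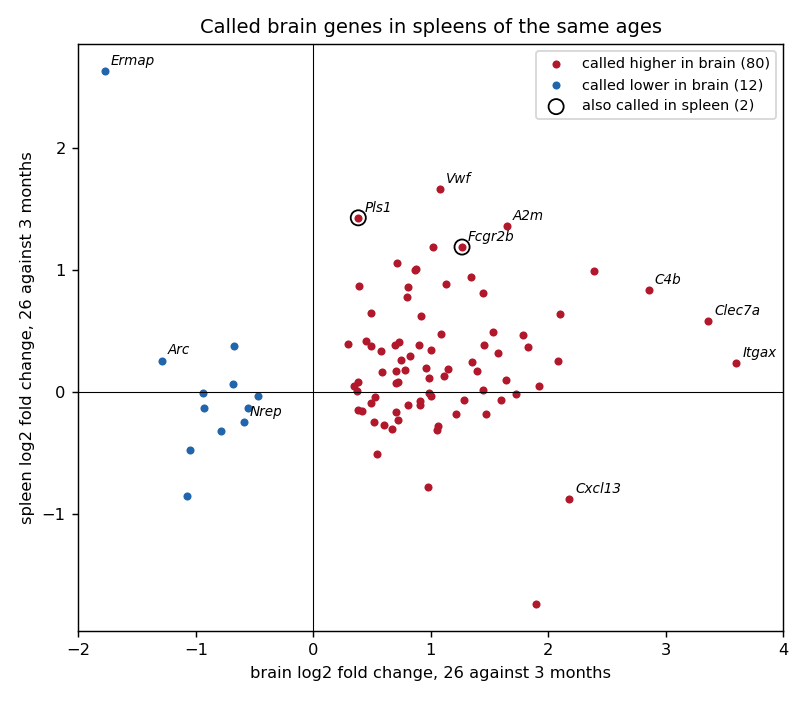
Log2 fold change (26 months over 3 months) in spleen (y axis) against that in brain (x axis) for the genes called in brain and tested in spleen, each table normalized separately, with circles on genes called in both. The 80 higher genes have a median of 0.97 in brain and 0.19 in spleen, and only Fcgr2b and Pls1 were called in spleen.

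At the edge of the threshold stood, just inside, Tpcn2, an endolysosomal cation channel (log2 fold change 0.83, limma adjusted p = 0.0428) and Coq7 (-0.47, limma adjusted p = 0.0444). Just outside were Galnt5 (1.29, limma adjusted p = 0.0527), Msn, moesin of the cell cortex (0.45, limma adjusted p = 0.0531), and Pon3, a lactonase (1.12, limma adjusted p = 0.0542).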

How the data were processed

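The 45 brain libraries of 6 ages were fitted together, 5 of 26 months, 7 of 3 months and the ages between. Per the labels' protocols, total RNA was extracted with TRI-Reagent and libraries came from a TruSeq RNA kit. Per the submitters' processing notes, the genome build was GRCm38, and the tools they name are HISAT2 2.1.0, cutadapt, DESeq2, R 3.5.1, SAMtools and bcl2fastq 2.20. How reads were counted, with which strand setting and on which annotation, is not given in the sources used here. Each deposited value is a signal, a gene's read count that the authors scaled by 1 size factor per library. Whole reads were recovered from the low values, to within 0.01 of a read in 100% of values.

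limma 3.58.1 (R 4.3.3, mean-variance trend) was run on log2(value + 1), with Benjamini-Hochberg adjustment over the 15566 genes tested and 2-sided tests. In 2 pairs of brain libraries, of 5 and of 8 months, the 2 libraries differed by less than sampling noise, so the mean of each pair stands as 1 sample, leaving 43. Alternatives were the quasi-likelihood test of edgeR 4.0.16 and DESeq2 1.42.0, both on recovered reads, besides other pseudocounts, filters, centring and leaving out libraries. The 12 samples and the 39 gene lists were chosen with earlier results of these data known. The labels do not say how far replicates were raised or prepared apart, so p-values measure only the spread between these samples, which may be partly technical. Apart from 12 large changes known from earlier results, genes are named by a rule: the 20 largest increases with a mean of at least 20 at 26 months, every called decrease with a mean of at least 20 at 3 months, up to 6 called members of each list, and the 3 called genes nearest the threshold. Predicted genes, names ending in Rik and pseudogenes were left out, and further genes are said to be picked after their values were seen. A few genes that the rule or a list holds are not reported here. On simulated data for this comparison with 2-fold and 1.5-fold changes, limma recovered 91.0% and 54.5% of changed genes. Of its calls there, 2.15% and 6.03% were false. The changed genes were drawn from those with a mean of at least 10. Positions are of GENCODE M21. Plots used matplotlib 3.10.9 (Python 3.11.15).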

Additional observations from a re-analysis of the deposited data

Results flagged for a closer look

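Of 112 groups of brains checked, that is each named gene at each of the 2 ages and 1700016P03Rik, 6 held a brain that stood apart from the rest of its group by Dixon's criterion, and chance flags about 1 in 20. At 26 months, Hrh1 read 28.2 in replicate 3, where the other 4 brains lay between 53.9 and 57.9. Rilpl2 read 34.1 in replicate 2 at 26 months, with the others at 40.2 to 41.6. At 3 months, Ptprc read 35.97 in replicate 7, with the others at 52.7 to 66.0. Vwf read 38.2 in replicate 1 at 3 months, with the others at 51.3 to 61.8, and Ggta1 read 62.5 in that same library, with the others at 36.9 to 45.4. Cd109 read 9.04 in replicate 3 at 3 months, with the others at 20.8 to 24.4.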

How the results depend on the processing

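As reported above, 103 genes were called, 89 higher and 14 lower. edgeR called 118 (100 of the 103 among them), 104 higher and 14 lower, and DESeq2 167 (all 103 among them), 142 higher and 25 lower. Pseudocounts of 4 and 0.5, no filter on low values, centring on the library median and counting all 45 libraries separately gave 100 to 116 genes. A mean of at least 50 left 60 genes, 48 of them higher. Fitting only the 26-month and 3-month libraries left 53, 47 higher and 6 lower, with fewer samples to estimate the spread. Without the 26-month and 3-month libraries under 5000000 reads (replicate 1 of each age) 49 were called, 40 higher and 9 lower. Libraries of the other ages under that depth were kept in this fit. Without 26-month replicates 1 and 2, chosen after seeing the data, 38 were called, 29 higher and 9 lower. Leaving out 1 library at a time gave 67 to 114 genes, 54 to 99 higher and 8 to 17 lower, and 40 higher and 3 lower genes were called in all 12 of these fits. Some of those lost the call in other fits. With only the 26-month and 3-month libraries Fyb, Erbin and 1700016P03Rik did (limma adjusted p = 0.131, 0.0846 and 0.0543). Without the libraries of these ages under 5000000 reads Fyb, Flnc and Nrep did (limma adjusted p = 0.0946, 0.0946 and 0.0977). Of the 89 higher and 14 lower genes, 46 and 5 were also called in the first of these fits and 40 and 7 in the second. No named gene reversed its direction under any alternative run. The causes of these differences in number were not tested. No paired analysis was possible because the labels give no replicate numbers that the ages share. The 10 higher genes and 1 lower gene with means under 20 in both groups rest on few reads.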

Other observations

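Gm37013, singled out after its values were seen, is a gene model at chr18:36969916-37833296 (GENCODE M21) that spans the clustered protocadherins and was among the higher genes. It read 616, 694, 684, 598 and 724 normalized reads in the 26-month brains, against a lowest of 345, a median of 407 and a highest of 503 in the 3-month brains. Each old brain was above each young one (log2 fold change 0.71, SE 0.12, limma adjusted p = 2.64e-04). Of 57 clustered protocadherin genes measured, 56 are listed at 0 in every brain library, although neurons use them, and 55 of those 56 are overlapped by that model. How the reads of overlapping genes were assigned is not given in the sources used here, and no level of a single protocadherin can be read from the table.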
